A study of Mus musculus with 388 samples.

Results

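Tomato+ bone marrow stromal cells that carried Kit transcripts were compared with Tomato+ cells that carried none. Cells entered when at least 1000 genes had a count and the cell held at least 10000 counts. Members were chosen by their rounded Kit count: 37 Tomato+ cells had 1 or more, which was 20% of the kept Tomato+ cells (14.5 to 26.5), out of 386 kept cells in the whole series. Because the Kit count chose the cells, Kit levels are given as a description. Every cell came from bone marrow of C57BL/6 mice, 2 months old, with the genotype KitMerCreMer; R26tdTomato and tamoxifen given at E12.5 and E14.5. In such mice a tamoxifen-activated Cre driven from the Kit locus switches on the red reporter tdTomato for good, so Tomato+ cells descend from cells in which the Kit locus was active before birth. Tomato− cells came from the same sort, which took cells positive for PDGFRα and negative for CD45, Ter119 and CD31, the surface marks of blood, erythroid and endothelial cells. The labels do not say whether the Cre-bearing Kit allele still makes Kit protein, nor how many mice gave cells.

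Kit is the receptor tyrosine kinase for stem cell factor, which the gene Kitl encodes. Binding of the ligand pairs the receptors, and the signal runs through PI3 kinase, the RAS and MAP kinase chain and STAT proteins. In adult bone marrow Kit is best known from blood stem and progenitor cells and mast cells, while Kitl is made by perivascular stroma that expresses the leptin receptor Lepr and the chemokine Cxcl12. Markers of endothelial, mast, erythroid and other cells that can carry Kit or slip through the sort were therefore counted in every cell.

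Each library is 1 cell, and the titles place the cells in 2 orders, made up of numbered sets, whose meaning the labels do not give. Order 1 held Tomato+ sets P1 (94 kept cells), P2 (5) and P3 (38), and order 2 held sets P1 and P2 of 24 cells each. Total counts per kept Tomato+ cell ran from 18031 to 3833473 with a median of 726174, and 2 cells of set P3 with 7927 and 4014 counts were left out. Levels are given as CPM, counts scaled to 1000000 counts of the cell or of the summed cells. No mouse is named, so each kind of cell is 1 sample without replicates; no test was made and no p-value is given. Intervals in brackets are exact 95% intervals for counting error alone, because amplified reads were not collapsed to molecules.

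In Tomato+ cells, Kit counts fell into a low and a high range with nothing between. Of the 37 Tomato+ cells with Kit counts, 15 had exactly 1 count and 21 had from 1 to 5. The next cell had 34 counts, and 16 cells ran from 34 to 444 with a median of 182.5. These 16 cells held 99.1% of all Tomato+ Kit counts. Their Kit level ran from 55 to 634 CPM with a median of 255 CPM, whereas the 21 low cells ran from 0.729 to 8.82 CPM. The threshold of 1 count therefore parted cells with 1 count from cells with 0, and the gap in these Tomato+ cells lay between 5 and 34. Kit lies on chromosome 5 at 75574916 to 75656722 of GRCm38, on the plus strand. Its neighbours are Pdgfra (75152292 to 75198215), which encodes the sorting antigen, and Kdr (75932827 to 75978458), which encodes a VEGF receptor.

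In order 1, 19 Tomato+ cells had Kit counts (13.9%, 8.56 to 20.8), and 9 of them were in the high range (6.57%, 3.05 to 12.1). In order 2 the kind held 18 of 48 cells (37.5%, 24 to 52.6), and 7 were in the high range (14.6%, 6.07 to 27.8). Within order 1, set P1 held 18 of the cells with Kit counts, set P3 held 1 and set P2 held 0. In order 2, set P1 held 8 and set P2 held 10. The single cell of P3 had 190 Kit counts of 299729 counts in all, and its Kit level of 634 CPM was the highest of all cells.

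**Figure D1:**
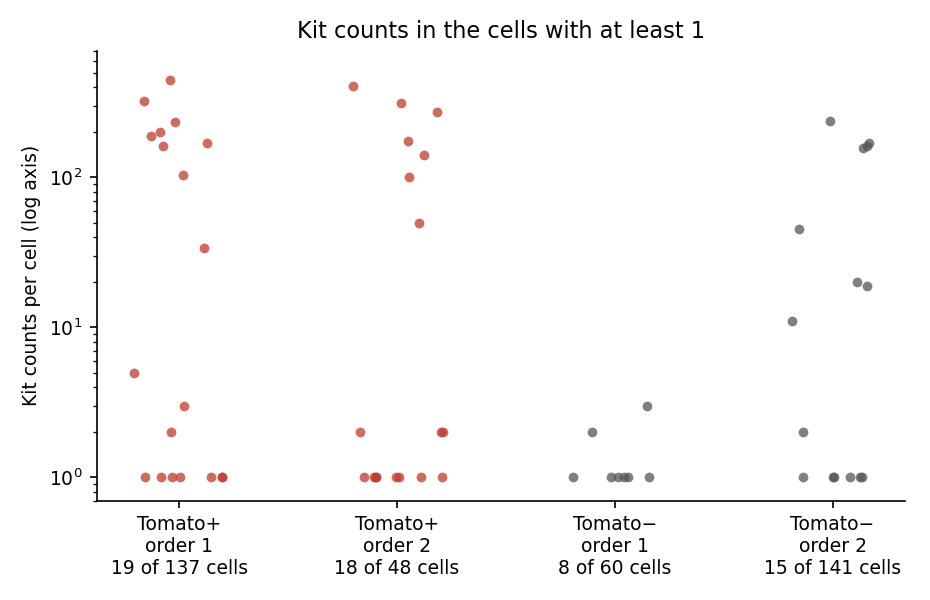
Kit counts per cell on a log axis for the cells with at least 1 Kit count, by group and order; points are cells, spread sideways for sight, and the labels give cells with Kit counts of all kept cells. In Tomato+ cells 21 points lie at 1 to 5 counts and 16 at 34 to 444, and Tomato− cells of order 1 reach 3 counts.

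Low Kit counts were placed unevenly among library pools. The column names of order 1 give 12 library codes, of which 7 held a cell in the high range. Of the other cells in those 7 codes, Tomato+ and Tomato− together, 17 had a low Kit count (15.2%), against 1 of 76 cells in the remaining codes (1.32%). Among the remaining codes, D81, D82 and D87 held 11, 11 and 12 Tomato+ cells, 0 Tomato− cells and 0 cells with Kit counts. Codes were not compared within single sets, so whether this contrast follows the codes or the sets was not tested. Of the 21 Tomato+ cells in the low range, 18 had less than 1% of the highest Kit count in their pool, where the title set stood for the pool in order 2. Tomato− cells of order 1 also had low counts in 8 of 60 cells (13.3%, 5.94 to 24.6), with 3 counts at most. Whether low Kit counts came from the cell itself was not tested.

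Depth and the number of stromal markers were close between the kinds. In order 1 the median cell held 809185 counts and 4499 genes with Kit counts, and 769797 counts and 4315.5 genes without, a ratio of median counts of 1.05. In order 2 the medians were 673606 counts and 4666 genes with Kit counts, and 619796 counts and 4401.5 genes without, a ratio of 1.09. The median mitochondrial share was 1.33% with and 1.42% without Kit counts in order 1, and 0.651% and 0.713% in order 2. When the cells of order 1 were split by depth into 46 shallow, 46 middle and 45 deep cells, Kit counts were found in 5, 6 and 8 of them, and counts in the high range in 3 of each. Of 22 markers of Lepr+ marrow stroma, a median of 20 reached 5 counts in cells of both kinds and in both orders. This number parts cell types weakly, because 6 Tomato− cells with blood markers, described below, still reached 13 to 17.

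Lepr, which marks perivascular marrow stroma, ran from 33.6 to 7389 CPM with a median of 3648 CPM in the 19 cells of order 1 with Kit counts, and from 23.8 to 12898 CPM with a median of 2919 CPM in those without. In order 2 it ran from 40.9 to 7021 CPM with a median of 3700 CPM, and from 1087 to 10127 CPM with a median of 4143 CPM without Kit counts. The kinds overlapped over most of their range. The log2 ratio of summed CPM, with 1 CPM added to both sums and cells with Kit counts on top, was −0.10 in order 1 and −0.09 in order 2. Cxcl12, the main retention chemokine of the marrow, had medians of 43737 CPM with and 41807 CPM without Kit counts in order 1, and 51386 and 53397 CPM in order 2.

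Kitl, which encodes the ligand, was present in cells that carried the receptor's transcript. Its median was 1321 CPM with and 1373 CPM without Kit counts in order 1, and 1509 and 1434 CPM in order 2. The ranges overlapped, and the log2 ratios of the sums were −0.33 and −0.21. Pdgfra had a lower sum in order 1, at 137.9 CPM with and 318 CPM without Kit counts, and close sums in order 2, at 361 and 400 CPM. Its log2 ratios were −1.20 and −0.15. Ptprc, which encodes CD45, had 4 counts in all over the 37 cells, and 0 in the Tomato+ cells without Kit counts.

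Of the 16 Tomato+ cells in the high Kit range, 15 had a stromal profile and 1 an endothelial one. The 15 cells had Lepr between 1202 and 6612 CPM, 17 to 22 of the 22 stromal markers at 5 counts or more, and Ptprc at 0 or 1 count. Their endothelial markers numbered 0 or 1 of 18 at 5 counts. Myeloid markers numbered up to 5 of 19 and erythroid markers up to 5 of 14. Of the 15 cells, 1 had 22 counts of Pecam1, which encodes CD31. Among all 16 cells 5 had 3 or more erythroid markers. The remaining cell, in set P2 of order 2 at a Kit level of 242 CPM, had 16 of 18 endothelial markers, 9 of 19 myeloid markers and Lepr at 40.9 CPM. It still had 16 of the 22 stromal markers, so that their number alone hardly set it apart. It carried 422 counts of Pecam1. The highest counts of Kdr (1347) and of Plvap (2669), a gene of endothelial fenestrae, among cells with Kit counts were each in a cell of the high range. Both genes reached 5 counts in 1 of the 37 cells.

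Kdr and Pecam1 went opposite ways in the orders. Kdr had 0 counts with and 3231 without Kit counts in order 1, and 1349 with and 0 without in order 2. The log2 ratios of Pecam1 were −3.56 and 3.45. Of 4 endothelial genes at the level considered below, 1 was above 0 in both orders and 0 were below 0 in both. A cell was said to carry a marker class when 3 or more of its markers had 5 or more counts. By this measure the endothelial class was carried by 1 of the 37 cells with Kit counts (2.70%, 0.0684 to 14.2), in order 2, and by 4 of the cells without (2.70%, 0.741 to 6.78), all in order 1. The summed level of the 18 endothelial markers reached 566 CPM with and 19390 CPM without Kit counts in order 1, and 23665 and 703 CPM in order 2.

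Mast cell markers were near 0. None of the 37 cells carried the mast class (0 of 37, up to 9.49%), nor did any Tomato+ cell without Kit counts (up to 2.46%). The summed mast level had a median of 0 CPM in both kinds and both orders. The mast cell proteases Cpa3, Mcpt4, Cma1, Tpsb2 and Tpsab1 and the IgE receptor genes Fcer1a and Ms4a2 had 0 counts in all 37 cells. Of the other members, the monoamine transporter gene Slc18a2 reached 5 counts in 5 of the 37 cells, and Hdc, which makes histamine, in 1. Gata2, a factor of blood progenitors and mast cells, reached 5 counts in 1 cell.

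The erythroid class was carried by 9 of the 37 cells with Kit counts (24.3%, 11.8 to 41.2) and 18 of those without (12.2%, 7.37 to 18.5). In order 1 it was carried by 2 and 11 cells (10.5% and 9.32%) and in order 2 by 7 and 7 (38.9% and 23.3%). The haemoglobin genes Hba-a1 and Hbb-bs each reached 5 counts in 13 of the 37 cells, and in 30 and 26 of the cells without Kit counts. Cells without Kit counts were more numerous, so that 30 and 26 of them were smaller shares than 13 of 37. Alas2 and Gata1, which mark erythroid precursors themselves, had 0 counts in all 37 cells, and Klf1 had 22 counts in 1 of them. Epor, the erythropoietin receptor gene, had counts in 3 of 19 cells in order 1 (15.8%) and 9 of 18 in order 2 (50%), compared with 12.7% and 10% of cells without Kit counts. Its summed level was 17.1 CPM with and 8.98 CPM without in order 1, and 42.6 and 14.1 CPM in order 2, log2 ratios of 0.86 and 1.53.

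The myeloid class was carried by 0 of 19 cells with Kit counts and 2.54% of those without in order 1, and by 16.7% and 30% in order 2. The pericyte and smooth muscle class was carried by 57.9% and 39% in order 1 and by 44.4% and 50% in order 2. Blood stem and progenitor markers were carried by 1 cell with Kit counts, the megakaryocyte class by 1 cell without, and the lymphoid class and the melanocyte and Schwann class by 0 of either. The part that transcripts of other cell types have in the gene differences was not tested beyond the values given here.

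Tomato− cells with 10 or more Kit counts were mostly of another kind. All 8 of them lay in order 2, had 11 to 238 Kit counts with 3 cells at 11 to 20, inside the gap of the Tomato+ cells, and stood at Kit levels from 13.1 to 247 CPM. Of these, 6 had Lepr from 22.8 to 177.9 CPM, 46 to 347 counts of Ptprc, 12 to 16 of the 19 myeloid markers and 3 to 12 of the 15 blood progenitor markers. The other 2 had Lepr at 1065 and 2219 CPM, Ptprc at 0 and 5 myeloid markers each. Mast markers were carried by 3 of the 8 cells. With a border of 1000 CPM of Lepr, set after the values had been seen, stromal cells with 10 or more Kit counts numbered 15 in the Tomato+ group and 2 in the Tomato− group. In order 1 these were 9 Tomato+ cells and 0 of 60 Tomato− cells, a share of up to 5.96%.

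**Figure D2:**
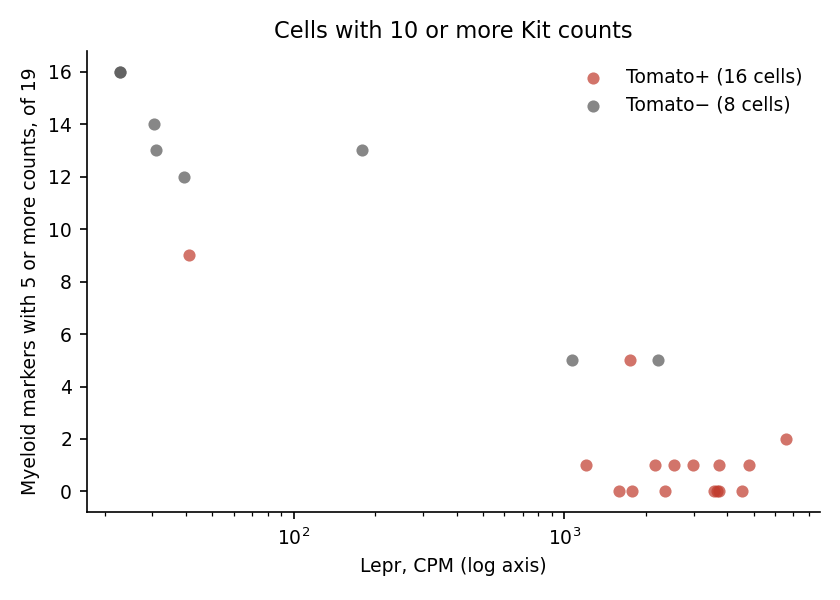
Lepr level in CPM (log axis) against the number of myeloid markers with 5 or more counts, for every cell with 10 or more Kit counts. Of the 16 Tomato+ cells, 15 lie at 1202 CPM of Lepr or above with 0 to 5 markers, and 6 of the 8 Tomato− cells lie at 177.9 CPM or below with 12 to 16.

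Sex-linked transcripts followed the sets of order 1. With 5 counts required, Xist without Y-linked transcripts was found in 20 of the 37 cells of set P3 that had no Kit count, and Y-linked transcripts alone in 0 of them. The only cell of P3 with Kit counts had Y-linked transcripts alone, unlike the rest of its set. In P1, 15 of 18 cells with Kit counts and 44 of 76 without had Y-linked transcripts alone, and 0 had Xist alone. In order 2, Xist alone was found in 1 cell with Kit counts and 0 without. Ratios without P3 are therefore added below for several genes that it moved.

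For differences in other genes, the counts of each kind were added up within each order before the log2 ratio of CPM + 1 was taken. Genes were considered at 10 CPM or more with a count in at least 10% of Tomato+ cells in each order, 6997 genes without Kit. A gene was called higher or lower when it passed 1.5-fold in the same direction in both orders and kept its sign in both orders after the top cell of each kind was left out. By this rule 264 genes were higher (3.77% of those considered) and 557 lower (7.96%), and the median gene lay at −0.12. The split turned with the scale: with the mean of log2(CPM + 1) over single cells, 760 genes were higher (10.9%) and 1.74% were lower, with the median gene at 0.24. Neither direction prevailed on both scales.

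On the scale of summed counts, calls were concentrated in sparsely detected genes. Among 1017 genes with a count in fewer than 25% of Tomato+ cells, 6.10% were higher and 14.6% lower. Among 1438 genes with a count in 75% or more, 0.556% were higher and 3.20% lower. With the mean of log2 values, 10.2% of these 1438 genes were higher and 2.09% lower, near the shares over all genes. The cells with Kit counts were also split by amount. Cells with 5 or more Kit counts (10 in order 1, among them the 1 low cell with 5 counts, and 7 in order 2) gave 240 higher (3.43%) and 955 lower genes (13.6%) against cells without. Cells with 1 to 4 Kit counts (9 and 11), a comparison added after the data had been seen, gave 2.46% higher and 13.4% (939 genes) lower. Numbers of calls were thus of similar size for cells with a trace of Kit and cells with many Kit counts. Ratios with 10 or more Kit counts, which leave the 5-count cell out, were added after the data had been seen and are given below.

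**Figure D3:**
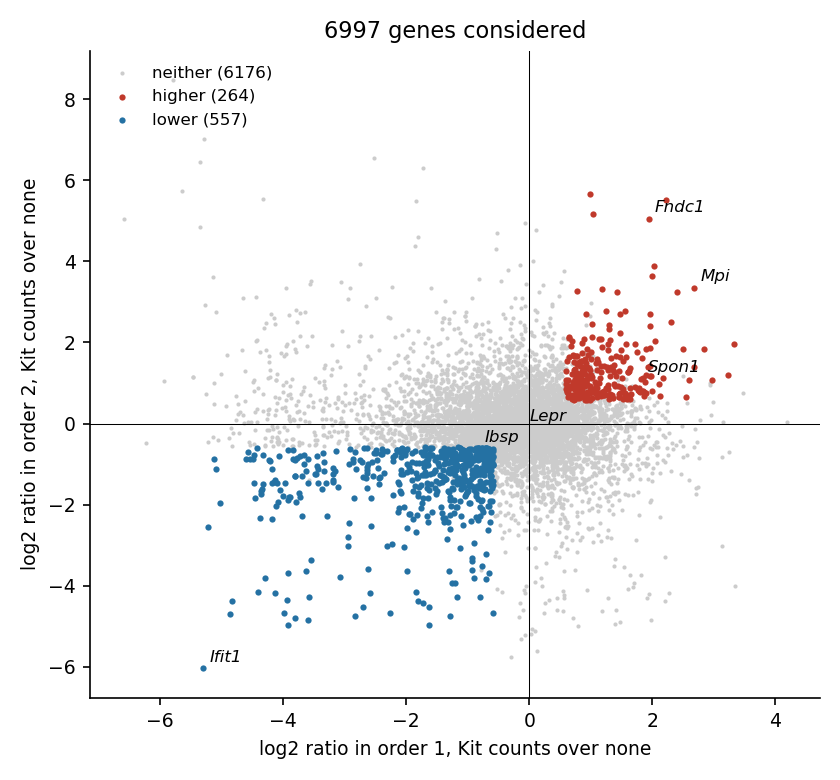
Log2 ratios of summed CPM + 1, Tomato+ cells with Kit counts over those without, in order 1 (x axis) and order 2 (y axis) for the 6997 genes considered. The 264 genes called higher are in red and the 557 called lower in blue; Lepr lies near 0 on both axes, Mpi at 2.68 and 3.35 and Ifit1 at −5.31 and −6.04.

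**Figure D4:**
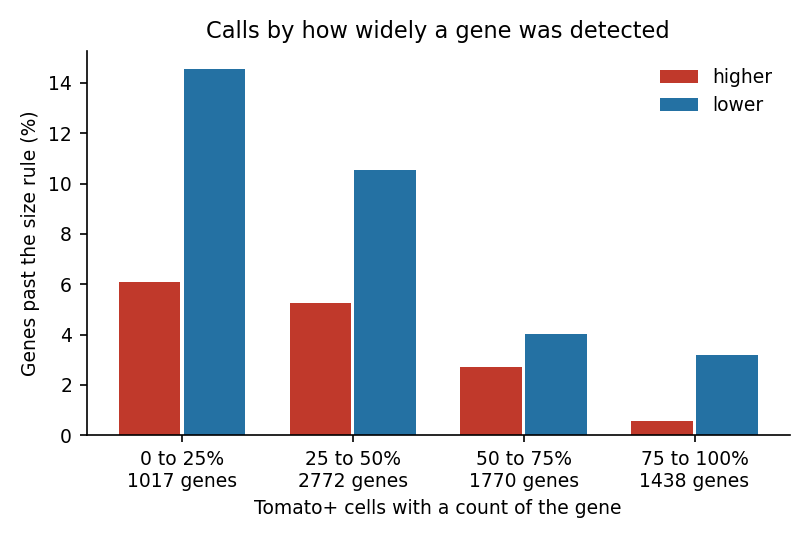
Percent of genes called higher (red) or lower (blue) in cells with Kit counts on the scale of summed counts, by the share of Tomato+ cells with a count of the gene, starting at 0. Both shares fall from the most sparsely detected genes, 6.10% and 14.6%, to those detected in 75% of cells or more, 0.556% and 3.20%.

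The 12 leading genes higher in cells with Kit counts, by the lesser of their 2 ratios, were Mpi, Lzic, Ptprk, Synpo2, Brcc3, Ptgs1, Slco1a4, Mamld1, Penk, Ndrg4, Fndc1 and Reck. Mpi, the mannose phosphate isomerase gene, had counts in 6 of 19 cells with Kit counts in order 1 and 4 of 18 in order 2, and in 12.7% and 6.67% of cells without. Its summed level was 47 CPM with and 6.51 CPM without Kit counts in order 1, and 31.3 and 2.15 CPM in order 2, log2 ratios of 2.68 and 3.35. Fndc1, a fibronectin type III domain gene, reached 10 CPM in 8 of 19 and 5 of 18 cells with Kit counts, and in 11% and 3.33% of those without. Its sums were 224 and 57.7 CPM in order 1, and 245 and 6.41 CPM in order 2. Ptprk, a receptor phosphatase gene, had a mean ratio of 2.40 over the orders, and Reck, which encodes an inhibitor of matrix metalloproteinases, one of 1.92.

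Not all of these genes followed the amount of Kit. Penk, which encodes the enkephalin precursor, was at 415 CPM with and 62.7 CPM without Kit counts in order 2, but 1 cell held 80.4% of its counts there and 1 cell held 65% in order 1. Both of these cells had 1 to 4 Kit counts, and with 5 or more Kit counts required the mean ratio of Penk was −0.26. Ptgs1, the cyclooxygenase 1 gene, and Ndrg4 had mean ratios of 3.95 and 3.59 with 5 or more Kit counts and of −0.67 and −0.11 with 1 to 4. Brcc3 was at −0.36 when cells that carried markers of another class were left out. This step took away 25 of the 37 cells with Kit counts. Of the other leading higher genes, 8 lost their call at this step and 3 kept it. Brcc3 and Mamld1 lie on the X chromosome.

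The 12 leading lower genes were Ifit1, Dhx8, Hhat, Rbm12, Slc25a15, Hmbox1, Faap100, Zfp518a, Agtrap, Acox3, Cstf2t and Tbc1d25. All 12 kept their sign with the mean of log2 values over single cells, but 6 of them lost their call and 6 kept it. Without cells that carried markers of another class 8 lost their call and 4 kept it. Ifit1, an interferon-induced antiviral gene, had at most 2.05 CPM in any cell with Kit counts, while 15 cells of order 1 without Kit counts (12.7%) and 1 of 30 in order 2 reached 10 CPM. In order 2 that 1 cell held 99.4% of the counts. The sums were 0.31 and 50.7 CPM in order 1, and in order 2 3 counts with Kit against 1542 without gave a ratio of CPM of 0.0031 (0.00063 to 0.0090).

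The helicase gene Dhx8 had 0 counts in the 19 cells of order 1 with Kit counts and counts in 25 cells without (21.2%). With 3 counts allowed over the summed cells, its summed level was at least 149.6-fold lower there. This floor covers the counting error of reads alone and not the spread between cells. By cells, 0 of 19 allows a share of up to 17.6%, so that the fold is a description of these sums. Hhat, the Hedgehog acyltransferase gene, was at least 110.8-fold lower in order 1 by the same floor, and Zfp518a at least 108.1-fold and Tbc1d25 at least 112.1-fold lower in order 2. The 12 genes had counts in 13 to 44 cells without Kit counts in order 1 and in 4 to 11 in order 2, so that few cells carried any of them.

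Genes detected in at least 75% of cells were fewer among the calls, and all 8 of them that were higher are named here, a choice made after their values were seen. The 46 of this breadth that were lower (3.20%) are not all named. The 8 higher genes, 0.556% of the 1438 of this breadth, were Cxcl14, Spon1, Lum, Mfge8, Emp1, Efemp1, Ccdc80 and Ppp2r5c. All but Emp1, a membrane protein gene, and Ppp2r5c, which encodes a regulatory subunit of the phosphatase PP2A, encode secreted or matrix proteins. The share of such genes among the 1438, or among the 46 lower genes, was not counted, so no theme is drawn from these 8. Each of the 8 was also called higher without set P3 of order 1 and without the cells that carried endothelial markers. Within set P1 of order 2, ratios with any Kit count ran from 1.71 for Spon1 to −0.15 for Ppp2r5c, with Lum at 0.13. In set P2 of that order Lum was at 1.85 and Ppp2r5c at 1.83. With 10 or more Kit counts, which left 2 such cells in P1 of order 2, ratios there ran from 2.56 for Spon1 to −2.01 for Lum.

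Cxcl14, a chemokine gene of Lepr+ stroma, ran from 8.02 to 9124 CPM with a median of 3414 CPM in the 19 cells of order 1 with Kit counts, and from 2.47 to 7970 CPM with a median of 1109 CPM in those without. In order 2 it ran from 34.1 to 10463 CPM with a median of 6259 CPM, and from 819.1 to 10070 CPM with a median of 2871 CPM without Kit counts. The ranges overlapped, and the log2 ratios of the sums were 1.56 and 0.75, or 1.32 and 0.75 without set P3. With the mean of log2 values over single cells they were 2.22 and 0.42, the latter short of 1.5-fold. Within single sets they were 1.27 (P1 of order 1), 0.49 (P1 of order 2) and 0.97 (P2 of order 2). With 5 or more Kit counts the medians were 6722 and 6604 CPM and the ratios 2.14 and 0.90. With 1 to 4 the medians were 1756 and 5018 CPM and the ratios 0.54 and 0.64. The cell at 34.1 CPM was the one with endothelial markers, and each of the other 16 cells with 5 or more Kit counts had at least 995 CPM.

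Spon1, which encodes the matrix protein spondin 1, had a median of 1351 CPM in cells of order 1 with 5 or more Kit counts, 459 CPM with 1 to 4 and 15.1 CPM with none. In order 2 the medians were 1510, 4.27 and 347 CPM. High Spon1 thus went with many Kit counts in both orders but not with low Kit counts in order 2. Its log2 ratios were 2.34 and 1.87 with 5 or more Kit counts and 0.98 and 0.29 with 1 to 4. Over all cells with Kit counts they were 1.82 and 1.11, and with the mean of log2 values over single cells 3.38 and −1.16, so that the direction in order 2 turned with the scale. With 10 or more Kit counts Spon1 was higher on both scales, at 2.52 and 1.87 and at 5.37 and 0.84. All 9 cells of order 1 in the high Kit range had at least 407 CPM of Spon1, and so had 5 of the 7 in order 2, at 995 CPM or more.

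The proteoglycan gene Lum had ratios of 1.83 and 0.80, although 1 cell held 68.5% of its counts among cells with Kit counts in order 1. Its medians there were 314 CPM with and 17.9 CPM without Kit counts, and 172.6 and 12.8 CPM in order 2. Mfge8, a secreted glycoprotein gene, had medians of 544 and 129.6 CPM in order 1, 486 and 363 CPM in order 2, and ratios of 1.18 and 0.77. Emp1 had ratios of 1.42 and 1.28 with 5 or more Kit counts, but the cell with 5 Kit counts held 43.9% of the Emp1 counts of these cells in order 1. With 10 or more Kit counts the ratios were 0.77 and 1.28, and with 1 to 9 they were 1.06 and −0.11, so that in order 1 Emp1 did not stand higher with many Kit counts than with few. Within set P1 of order 1 the ratio of Emp1 with 10 or more Kit counts was 0.37. Efemp1 and Ccdc80, both genes of extracellular matrix proteins, leaned the other way, with mean ratios of 0.24 and 0.34 with 5 or more Kit counts, where neither was called, and of 1.48 and 1.26 with 1 to 4, where Efemp1 was called and Ccdc80 was not. Without set P3 the ratio of Ccdc80 in order 1 was 1.73 with any Kit count in place of 0.90, and with 1 to 4 Kit counts Ccdc80 was then called higher.

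Ibsp and Alpl stood lower in the cells with many Kit counts and were the 2 of 13 osteogenic genes called lower with 5 or more. The list as a whole did not stand lower: its median was 0.27, with 1 gene called higher and 5 above 0 in both orders. Ibsp, the bone sialoprotein gene, had a count in every Tomato+ cell. In order 1 it ran from 118.9 to 44145 CPM with a median of 4092 CPM with Kit counts, and from 21 to 131491 CPM with a median of 9680 CPM without. In order 2 it ran from 72.1 to 19142 CPM with a median of 3738 CPM, and from 703 to 24951 CPM with a median of 7473 CPM without. The ranges overlapped, and the log2 ratios were −0.83 and −0.61. With 5 or more Kit counts they were −1.58 and −1.49, with medians of 3303 and 178.3 CPM. With 1 to 4 Kit counts the medians of Ibsp, 11662 and 7551 CPM, were at or above those of cells without. The sums of these cells, 10784 and 7053 CPM, were below the 13516 and 8384.5 CPM of cells without. With 1 to 9 Kit counts, which adds the 5-count cell, the ratios of the sums were −0.43 and −0.25, not called. With the mean of log2 values they were −0.99 and −0.93, called lower, so that the reading of the low cells turned with the measure. Without cells that carried endothelial markers the ratio of order 2 was −0.54, short of 1.5-fold, for any Kit count, and −1.30 with 5 or more. Within single sets and with any Kit count the ratios of Ibsp were −0.41 (P1 of order 1), −1.03 (P1 of order 2) and −0.38 (P2 of order 2). With 10 or more Kit counts Ibsp was lower, at −1.55 and −1.49 over the orders.

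Alpl, which encodes the alkaline phosphatase of osteoblast precursors, led the lower genes with 5 or more Kit counts. It reached 10 CPM in 1 of 10 such cells in order 1 and 0 of 7 in order 2, with 14.7 CPM at most. Of the cells without Kit counts 18 (15.3%) and 12 of 30 reached that level, with up to 3276 and 1429 CPM. The sums with 5 or more Kit counts were 0.97 CPM in order 1, beside 94.7 CPM without, and in order 2 3 counts against 3501 gave a ratio of CPM of 0.0035 (0.00073 to 0.010). Cells with 1 to 4 Kit counts lay at 190.8 and 128.3 CPM of Alpl, so that over all cells with Kit counts the ratios were 0.00 and −1.21 and Alpl was not called. Without set P3 the ratio in order 1 was 0.97 with any Kit count, opposite to order 2, and −4.63 in place of −5.60 with 5 or more. Alpl was near 0 in most cells of order 1 without Kit counts too, with medians of 1.11 CPM there and 2.83 CPM in order 2.

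Igfbp5, which encodes a binding protein of insulin-like growth factors, belongs to the Lepr+ stroma list and not to the osteogenic list. It was lower with 5 or more Kit counts, with medians of 754 CPM with and 4236 CPM without in order 1, and 671 and 3370 CPM in order 2 (ratios −1.67 and −2.00). Sp7, the osterix gene, was called higher with 5 or more Kit counts, but it reached 10 CPM in 2 of 10 and 2 of 7 of these cells, and without set P3 its ratio in order 1 was 0.32 and Sp7 was not called. Of 13 osteogenic genes considered, 1 was lower and 0 higher with any Kit count, beside 7.96% and 3.77% of all genes, and 2 were lower and 1 higher with 5 or more, beside 13.6% and 3.43%. These numbers are near those shares. The list medians were 0.23 and 0.27, and with 5 or more Kit counts 5 members were above 0 in both orders and 2 below.

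**Figure D5:**
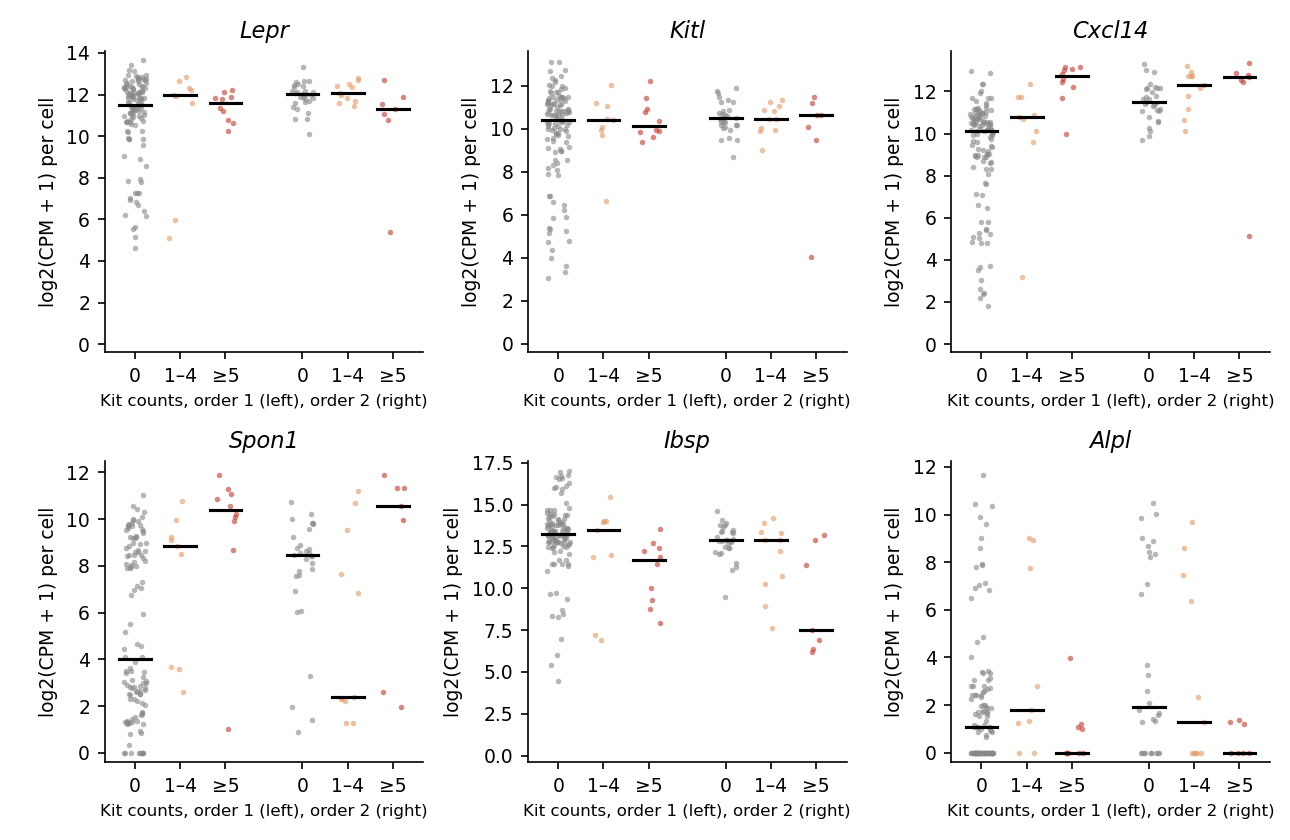
Log2(CPM + 1) of 6 genes in single Tomato+ cells by Kit count (0, 1 to 4, 5 or more) in order 1 and order 2; points are cells and bars medians. Lepr and Kitl overlap across the kinds, Cxcl14 and Spon1 stand high and Ibsp low in most cells with 5 or more Kit counts, and Alpl lies near 0 in most cells of order 1 of every kind.

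Genes of the Kit pathway itself were called about as often as other genes. Of 33 signalling proteins considered, 1 was higher and 2 were lower with any Kit count, beside 3.77% and 7.96% of all genes, and the list median was −0.24 beside −0.12 for all genes. The protein kinase C gene Prkca was higher, with summed levels of 67 CPM with and 27 CPM without Kit counts in order 1, and of 46 and 25.3 CPM in order 2. It reached 10 CPM in 6 of 10 and 4 of 7 cells with 5 or more Kit counts, and in 22.9% and 46.7% of cells without, while cells with 1 to 4 Kit counts had sums of 0.50 and 9.97 CPM. In order 1, 1 cell held 58.3% of the Prkca counts of cells with Kit counts. With 10 or more Kit counts the ratios of Prkca were 1.18 and 2.00, and with 1 to 9, where the cell with 5 Kit counts falls, 1.36 and −1.26. Without set P3 Prkca was not called with any Kit count, at 0.92 and 0.84. The kinase gene Jak2 was lower, with ratios of −0.71 and −1.45, and so was Sos1, which activates RAS, with −0.60 and −0.91.

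Of 18 genes of ERK feedback and immediate early response, which are known targets of receptor kinases, 0 were called with any Kit count, beside 3.77% of all genes higher and 7.96% lower. With 5 or more, the feedback inhibitor gene Spry1 was higher, with medians of 624 CPM with and 5.69 CPM without in order 1, and 552 and 308 CPM in order 2. Spred2, another inhibitor of the pathway, was lower at a mean ratio of −1.62. With the mean of log2 values and 10 or more Kit counts, Spry1 was higher at 4.20 and 1.16 and Spred2 was not called. Of 6 transcription factor genes linked to Kit, the ETS factor gene Etv1 was higher at 0.94 and 0.65 and Tcf3 lower at −0.90 and −0.66. Of the receptor kinases nearest to Kit, Pdgfra and Pdgfrb were considered and neither was called.

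The stromal and lineage lists are read for any Kit count unless stated, beside 3.77% of all genes higher and 7.96% lower. Of 22 Lepr+ stroma markers Cxcl14 was higher and 0 were lower, with a list median of 0.01. Of 14 haematopoietic niche factors (median 0.01) and 11 skeletal stem cell markers (median 0.33), 0 were called. Of 12 adipogenic genes the transcription factor gene Klf15 was lower, of 2 chondrogenic genes the cartilage matrix gene Comp was lower, and of 6 Sca1+ fibroblast-like genes Lum was higher. Of 6 pericyte and smooth muscle genes the channel subunit gene Abcc9 was higher at 1.28 and 1.81, and the muscle filament gene Des and the myosin light chain gene Myl9 were lower at mean ratios of −2.80 and −0.63. In order 2, 1 cell held 80.1% of the Abcc9 counts of cells with Kit counts. Of 4 erythroid genes Epor was higher. With 10 or more Kit counts Hbb-bs was called higher in its place, and Epor was not called. Of 4 endothelial, 3 cell cycle, 2 blood progenitor, 1 lymphoid and 1 melanocyte and Schwann gene 0 were called, and the mast, myeloid and megakaryocyte lists had 0 members at the level considered.

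Several stress genes stood lower in cells with many Kit counts on the scale of summed counts. Of 14 considered, 0 were higher and 3 lower with any Kit count (Gadd45a, Hmox1 and Hsp90aa1), beside 7.96% of all genes, and 0 higher and 6 lower with 5 or more, beside 13.6% of all genes. The 6 were the heat shock genes Hspa1a, Hspa1b, Hsp90aa1, Hspb1 and Dnajb1 and the growth arrest gene Gadd45a. The list median was −0.06 with any Kit count and −1.01 with 5 or more, and that of all genes −0.12 and −0.23. Hsp90aa1 had medians of 384 CPM with 5 or more Kit counts, 764 CPM with 1 to 4 and 581 CPM with none in order 1, and of 1620, 3611 and 3036 CPM in order 2. With 10 or more Kit counts the same 6 genes were lower on summed counts, but none of the 6 was called with the mean of log2 values over single cells. On that scale Hsp90aa1 was at 0.22 and −0.40 with any Kit count, so that its direction in order 1 turned, and Hmox1 was at −0.43 and 0.45. The ranges of Hsp90aa1 overlapped between all 3 kinds in both orders. Within set P2 of order 2, ratios of sums with 10 or more Kit counts were −1.53 for Dnajb1 and −0.78 for Hsp90aa1. Hspa1a, Hspa1b, Gadd45a and Hspb1 were at −0.50, −0.39, −0.37 and 0.09 there, short of 1.5-fold. In P1 of order 2, with 2 such cells, the 6 genes ran from −5.83 (Hspa1a) to −1.09 (Gadd45a). In P1 of order 1 they ran from −4.99 (Gadd45a) to −1.07 (Hspa1a). Whether the handling of the cells differed was not tested.

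Over the cells with Kit counts, the genes whose CPM ranked most like that of Kit in both orders were Ndufb7, Mfsd5, F830016B08Rik, Selenop, Igfbp4, Son, Scp2, Mppe1, Ube2n and Hdac7. Likeness was the lesser of the Spearman coefficients over 19 cells of order 1 and 18 of order 2, from 0.51 for Ndufb7 to 0.40 for Hdac7. These are descriptions over cells that share libraries and depth. In the 7 cells of order 1 and 8 of order 2 with exactly 1 Kit count, Kit CPM was set by depth alone. The 10 genes are the first of 6997, and no background was computed for the coefficients. Mfsd5 was also among the 12 leading higher genes with 5 or more Kit counts, with sums of 105.8 and 24.5 CPM in order 1 and 93.2 and 12.3 CPM in order 2.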

How the data were processed

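The deposited table holds 1 column per cell and 25000 genes by symbol for 388 cells. Its values are expected counts, as deposited by the authors, of which 4.91% of those above 0 were not whole. StringTie 1.3.3b, HTSeq 0.6.0 and HISAT are named in the submitters' processing notes, with GRCm38 as the build; which of them made these values was not stated. The labels' protocols describe reverse transcription followed by amplification of whole transcripts and mention no molecular identifiers. No strand is stated for the counting, and near-identical genes such as Hba-a1 and Hba-a2 or Hspa1a and Hspa1b can split reads between them.

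Values were rounded to whole numbers, and every Kit value was already whole. Columns were matched by name to group, order and set, and groups came from the labels. The 2 filters on cells kept 185 Tomato+ cells (137 in order 1), of which 148 had no Kit count (118 in order 1 and 30 in order 2), and 201 Tomato− cells (60 and 141). No doublet caller was run. Ratios used summed counts per kind and order, CPM with a pseudocount of 1, the filter of 10 CPM and 10% of cells, and 1.5-fold, with numpy 2.4.6, pandas 2.3.3 and scipy 1.17.1. The pseudocount understates changes of low genes. The scripts were tested on simulated data. Shares have Clopper-Pearson and sums Poisson intervals at 95%. Other minimum Kit counts, filters, pseudocounts, depths and sets of cells were tried.

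The cells, the 22 gene lists and the rules were chosen with earlier results of these data known. Named genes were the first 12 called in each direction by the smaller order ratio, without mitochondrial, ribosomal protein and predicted genes, the members of each list that were called, fixed genes (Kit, Kitl, Lepr, Pdgfra, Kdr, Ptprc, Pecam1), leading members of the endothelial, mast and erythroid lists, and the 10 genes most like Kit; others are said to be chosen after their values were seen. Spry1, Alpl, Igfbp5, Sp7 and the heat shock genes are list members called with 5 or more Kit counts. Hbb-bs is a list member called with 10 or more, a cut at which not all called members are named. Coordinates come from GENCODE M21 on GRCm38.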

Additional observations from a re-analysis of the deposited data

How the results depend on the processing

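The shares and counts of genes depended on what was taken as a Kit count. The share of cells with Kit counts in order 1 was 7.30% at 5 counts, 6.57% at 10 and 2.33% without set P1. In order 2 it was 20.8% at 2 counts, 14.6% at 5, at 10 and when only counts above 1% of their pool's highest were taken, and 18.8% after cells were thinned to 150000 counts. The ratio of median counts in order 1 was 0.49 without set P1, which leaves 1 cell with Kit counts; gene ratios could not be computed then. The number of cells with Kit counts that carried any of the 9 other classes, 25, was 4 with 5 markers required and 12 among cells with 5 or more Kit counts. For endothelial markers, 1 cell became 10 at 1 count per marker and 3 with 2 markers; for erythroid markers, 9 became 14, 15, 1 with 5 markers and 5 among cells with 5 or more Kit counts. Lower genes, 557 or 7.96% of those considered, were 955 (13.6%) with 5 or more Kit counts, 986 (14.1%) with 10 or more, 939 (13.4%) with 1 to 4, 875 (12.51%) without cells that carried other classes' markers and 366 (5.23%) with a pseudocount of 10 CPM. At 20 CPM and 20% of cells, 3.12% and 5.80% of 5033 genes were higher and lower, and with no filter 3.62% (439) and 9.90% (1200) of 12117. With the mean of log2 values they were 10.9% (760) and 1.74% of 6997 genes, and 2.46% were higher with 1 to 4 Kit counts. Of the 264 and 557 genes, 96 and 338 were also called with 5 or more Kit counts, and 220 and 455 without set P3 of order 1. Without cells that carried other classes' markers, 73 and 219 of them were also called. Mean ratios reversed for Penk, to −0.26 with 5 or more and −0.34 with 10 or more Kit counts, for Brcc3, to −0.36 without cells carrying other classes' markers, and for Ptgs1 (−0.67) and Ndrg4 (−0.11) with 1 to 4. The comparisons at 1 to 4 and at 10 or more were chosen after seeing the data, and the cause of these changes was not tested. Depth limits statements on the 1-count cells, and no comparison has replicates. Within-set ratios of genes, given for single genes in the report, were also chosen after seeing the data. No paired analysis was possible because the labels number single cells, so that cells of the 2 kinds share no number.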
